A study of Mus musculus with 6 samples.

Results

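The 43 genes described here serve protein folding and its control in the endoplasmic reticulum (ER), the compartment in which secreted and membrane proteins are made. They were chosen by name: ER chaperones, disulfide isomerases, translocon subunits, degradation factors and genes of the unfolded protein response, looked up by Ensembl identifier. All 43 were among the 22271 genes of the read-count table, and all 43 passed the filter on low counts that left 12850 genes for testing. RNA came from CD27-low MOP and CD27-high MODP, each with 3 libraries, sorted by flow cytometry from C57BL/6JRj mouse bone marrow. The series' title describes MOP-type cells as progenitors of macrophages and osteoclasts downstream of MODP-type cells. Every sample title in both populations carries the letters WT, read here as wild type. No treatment or engineered allele is labelled in either population, and use of separate or pooled animals was not given in the sources used here.

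Proteins enter the ER through the Sec61 channel, where their signal peptide is cut off and sugars are attached. Chaperones such as BiP, calreticulin and GRP94 and the disulfide isomerases then fold them, and proteins that stay misfolded are sent out to the proteasome by ER-associated degradation. When unfolded protein builds up, the sensors IRE1, PERK and ATF6 start the unfolded protein response, in which XBP1 and ATF6 raise genes of the folding machinery and ATF4 raises genes of amino acid supply and redox balance. Myeloid progenitors make large amounts of granule and lysosomal protein, all of which passes through this compartment.

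Many of the folding and import genes had less RNA in MOP, but only the import genes all lay on 1 side of 0. Log2 fold changes, MOP minus MODP, were below 0 for all 11 import genes and 8 of 10 chaperone genes. They were below 0 for 5 of 9 disulfide and proline folding genes, 3 of 6 degradation genes and 1 of 7 sensor genes. Of the 43 genes, 12 were lower in MOP, 3 were higher and 28 did not pass edgeR's quasi-likelihood test (Benjamini-Hochberg adjusted p under 0.05 over all tested genes). That is 27.9% lower and 6.98% higher, where over all tested genes 14.9% were lower and 16.3% were higher. Under upper-quartile scaling 18 of the 43 were lower and 3 were higher, beside 2452 lower and 1692 higher of all tested genes. The lower genes were Calr, Hyou1 and Manf among the chaperones, Pdia6, Pdia4, P4hb and Pdia3 among the disulfide isomerases, Ssr2, Ssr3, Ssr4 and Spcs2 in the import machinery, and the sensor gene Ern1. The higher genes were Edem1, Ero1lb and Eif2ak3.

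The differences were small. Log2 fold changes, MOP minus MODP, ran from -0.76 for Calr to 0.46 for Edem1 with a median of -0.13, and 28 of 43 (65.1%) were below 0. Over all tested genes the median was -0.008, and 51.2% were below 0. None of the 43 passed the test with a difference of at least 2-fold, which 6.83% of all tested genes did in either direction. Without regard to the test, all 3 MOP libraries lay below all 3 MODP libraries for 17 genes and above them for 5, and for 21 the groups overlapped. Over all tested genes, 23.8% had every MOP library below and 23.8% had every MOP library above.

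Libraries that carry the same number in the count table deviated together from their population means, so the comparison was also fitted with that number as a block. With the block, 20 of the 43 genes were lower in MOP and 6 were higher, where 19.8% of all tested genes were lower and 21.2% were higher. The added lower genes were Hspa5, Sdf2l1, Creld2, Sec61b, Ssr1, Ddost, Stt3a and Syvn1, and the added higher genes were Derl1, Atf6 and Ppp1r15a. The sample titles number the third pair differently. With the title number as a block 17 were lower and 5 were higher, beside 2309 lower and 2517 higher of all tested genes. In that fit Hspa5, Creld2, Sec61b and Ppp1r15a did not pass (edgeR adjusted p = 0.19, 0.13, 0.072 and 0.27). Within the pairs of libraries numbered 1, 2 and 3, the median log2 ratio of MOP to MODP over the 43 genes was -0.15, -0.13 and -0.12. Without MOP library 1, 7 genes were lower and 3 were higher, and without both number 3 libraries 9 were lower and 2 were higher. Calls over all tested genes fell too, from 1913 lower and 2095 higher to 1036 lower and 1281 higher in the first of these fits. In the second they fell to 797 lower and 1029 higher.

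**Figure D1:**
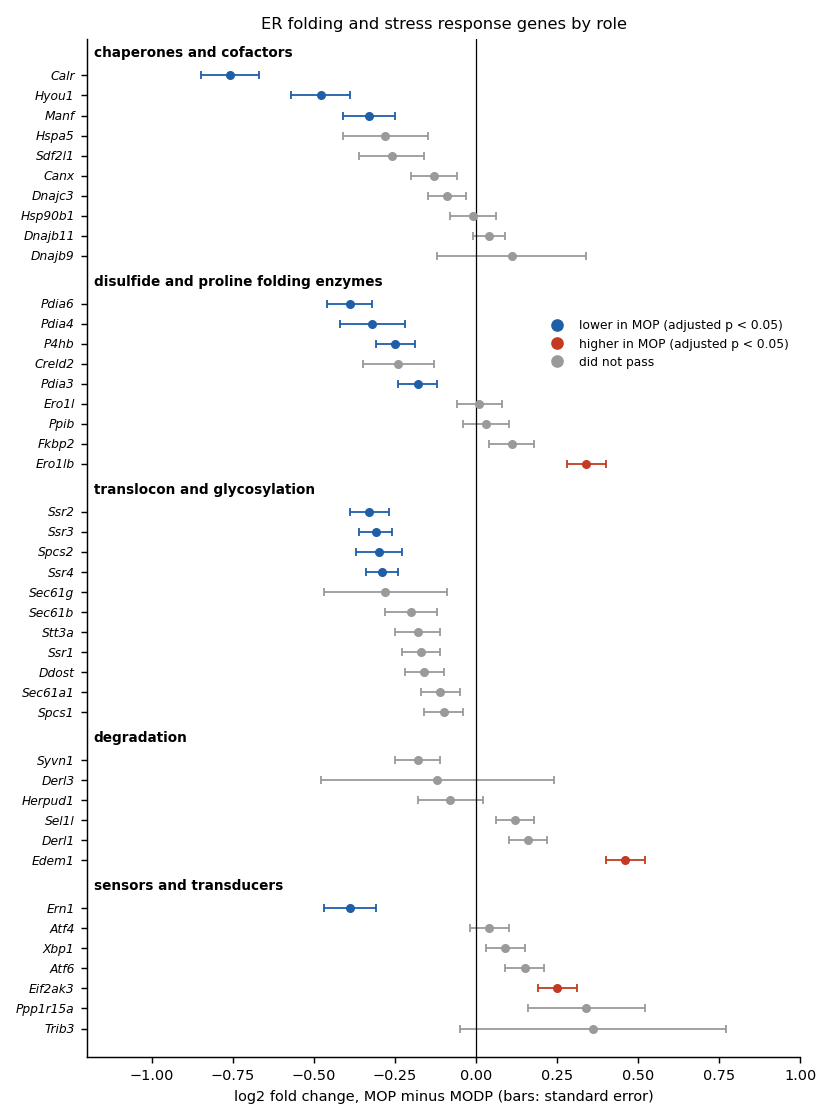
Log2 fold change, MOP minus MODP, of the 43 genes grouped by role, with bars for the standard error from edgeR's fit of 3 libraries a population. All 11 translocon and glycosylation genes lie below 0, and Calr at -0.76 and Edem1 at 0.46 are the ends of the range.

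Many genes of the unfolded protein response carry an ER stress response element (ERSE) near their start, a paired site in which CCAAT, bound by the factor NF-Y, and CCACG, bound by ATF6 and XBP1, stand 9 bases apart. RefSeq promoter windows of GRCm38.p6, from 250 bases before to 50 bases after the start, were found for 37 of the 43 genes; Hyou1, Manf, Sec61a1, Ssr2, Derl1 and Atf6 had none. The ERSE, searched on both strands as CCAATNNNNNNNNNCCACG, stood in windows of 10 genes (27.0% of the 37), against 39 of all 32851 RefSeq windows (0.119%). The first share counts genes and the second counts single windows. Genes of the unfolded protein response were among those chosen by name, so the higher share is not independent of that choice. The sites are shown because these 10 genes share them. Each site is given on the strand on which it reads as the motif, with the CCAAT and CCACG ends in capitals and positions counted from the start at +1.
Hspa5 (chromosome 2, -65 to -47, sense): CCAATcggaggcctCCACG
Hsp90b1 (chromosome 10, -212 to -194, sense): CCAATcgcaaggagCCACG
Hsp90b1 (chromosome 10, -107 to -89, antisense): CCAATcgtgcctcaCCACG
Dnajc3 (chromosome 14, -105 to -87, sense): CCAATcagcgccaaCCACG
Calr (chromosome 8, -162 to -144, antisense): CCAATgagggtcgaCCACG
Canx (chromosome 11, -145 to -127, sense): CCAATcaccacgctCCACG
Pdia6 (chromosome 12, -98 to -80, sense): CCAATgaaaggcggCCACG
Ero1lb (chromosome 13, -201 to -183, antisense): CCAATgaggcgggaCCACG
Creld2 (chromosome 15, -126 to -108, antisense): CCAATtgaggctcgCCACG
Syvn1 (chromosome 19, -44 to -26, sense): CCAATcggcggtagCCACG
Derl3 (chromosome 10, -156 to -138, antisense): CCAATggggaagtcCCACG

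The shorter ERSE-II, ATTGGNCCACG on both strands, stood in the windows of Dnajb11 and Herpud1, against 12 of all 32851 windows (0.0365%). Its sites follow, with the matched ends in capitals.
Dnajb11 (chromosome 16, +8 to +18, sense): ATTGGcCCACG
Herpud1 (chromosome 8, -52 to -42, sense): ATTGGgCCACG

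The XBP1 core TGACGTG, also searched on both strands, occurred in the Hspa5 window alone among the 37 genes, at -157 to -151, and in 661 of all windows (2.01%). No match overlapped a match of another motif. A match describes these letters in this window and shows no binding.

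Genes with the element stood among the lower genes, the higher genes and those that did not pass. Of the 10 genes with an ERSE, Calr and Pdia6 were lower in MOP, Ero1lb was higher and 7 did not pass the test, with a median log2 fold change of -0.16. Counting ERSE-II as well, 2 of 12 were lower and 1 was higher, with a median of -0.12 and a range from -0.76 to 0.34. Of the 25 genes with a window and neither form, 7 were lower and 2 were higher, with a median of -0.16. Shares of all tested genes were 14.9% lower and 16.3% higher. The difference between the sets with and without the element was not tested.

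**Figure D2:**
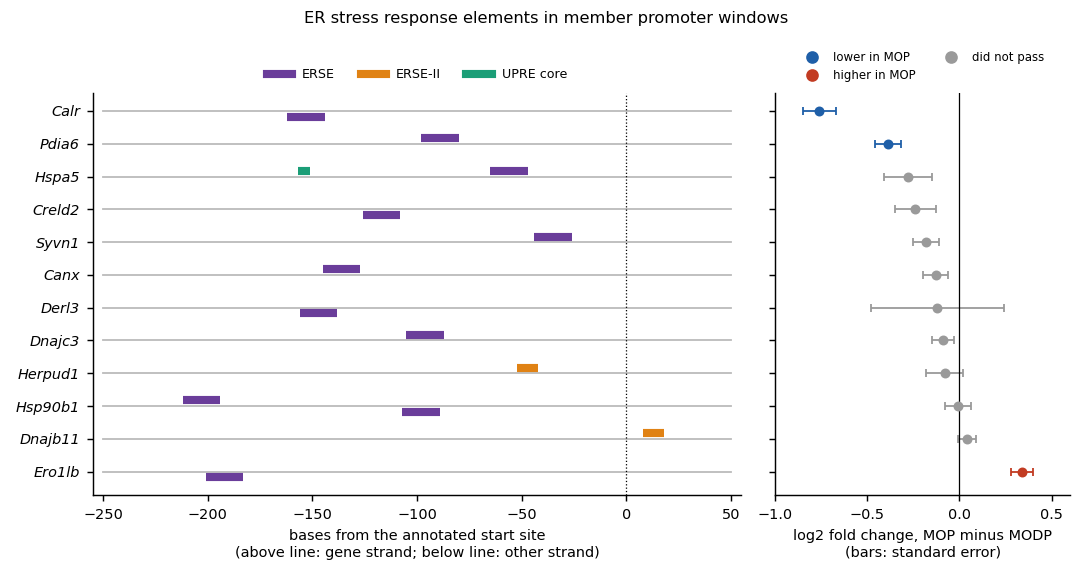
Left, positions of ERSE, ERSE-II and XBP1 core (UPRE core) matches in bases from the annotated start site, for the 12 genes that hold a match; right, each gene's log2 fold change, MOP minus MODP, with its standard error. Genes run down the page from Calr at -0.76 to Ero1lb at 0.34, and the ERSE reads on the other strand in both of these genes.

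The chaperones held the largest single difference. Of 10 chaperone and cofactor genes, Calr, Hyou1 and Manf were lower in MOP and none of the other 7 passed, with a median log2 fold change of -0.19. That is 30.0% lower, beside 14.9% of all tested genes. Calr encodes calreticulin, the calcium-binding lectin that holds newly made glycoproteins. Levels are given as counts per 1000000 (CPM) with library sizes scaled by TMM. Calr stood at 1551, 1543 and 1779 CPM in MOP libraries 1, 2 and 3, against 2720.0, 2462 and 3097 CPM in MODP libraries 1, 2 and 3. Every MOP library was far below every MODP library, and the number 3 library was the highest in each population. Calr was 1.70-fold lower in MOP, at a log2 fold change of -0.76 ± 0.09 (SE; edgeR adjusted p = 0.0011).

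The 250 bases before the Calr start, chr8:84846932-84847181 on the minus strand of GRCm38.p6, are shown because Calr had the largest difference of the 43 genes and carries an ERSE. Capitals mark the ends of that element, which here reads on the opposite strand.
Calr: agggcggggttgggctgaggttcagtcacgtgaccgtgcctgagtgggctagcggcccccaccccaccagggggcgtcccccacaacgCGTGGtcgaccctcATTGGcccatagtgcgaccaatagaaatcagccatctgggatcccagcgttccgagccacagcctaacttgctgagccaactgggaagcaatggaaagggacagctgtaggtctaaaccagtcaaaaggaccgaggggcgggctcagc

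Hyou1 encodes ORP150, a large HSP70-like exchange factor of BiP. Hyou1 had 265, 278 and 325 CPM in MOP libraries 1, 2 and 3, against 411, 369 and 431 CPM in MODP. The highest MOP library stood below the lowest MODP library, and Hyou1 was lower in MOP by the test, at a log2 fold change of -0.48 ± 0.09 (SE; edgeR adjusted p = 0.0053). Manf encodes a secreted cofactor of BiP that is itself a target of the unfolded protein response. Manf stood at 148, 155 and 164 CPM in MOP libraries 1, 2 and 3, against 174, 206 and 207 CPM in MODP libraries 1, 2 and 3. The populations did not overlap, and the log2 fold change came to -0.33 ± 0.08 (SE; edgeR adjusted p = 0.014). Its call was lost without MOP library 1 (edgeR adjusted p = 0.067), without both number 2 libraries (0.056) and without both number 3 libraries (0.069).

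The master chaperones did not pass the test. Hspa5 encodes BiP, the HSP70 chaperone that also keeps the sensors inactive. Hspa5 had 1185, 1251 and 1419 CPM in MOP libraries 1, 2 and 3, against 1403, 1392 and 1879 CPM in MODP. MOP library 3 stood above MODP libraries 1 and 2, so the populations overlapped, and the log2 fold change came to -0.28 ± 0.13 (SE; edgeR adjusted p = 0.16). Within each numbered pair the MOP library was the lower, and with the number as a block Hspa5 was called lower (edgeR adjusted p = 0.0051), but not with the title number as a block (0.19). Hsp90b1 encodes GRP94, the HSP90 chaperone of the ER. Hsp90b1 stood at 819, 796 and 905 CPM in MOP libraries 1, 2 and 3, against 820.0, 800.0 and 916 CPM in MODP libraries 1, 2 and 3. The populations overlapped, and the log2 fold change came to -0.01 ± 0.07 (SE; edgeR adjusted p = 0.95).

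The bases before the Hspa5 start, chr2:34771840-34772089 on the plus strand of GRCm38.p6, carry an ERSE and the XBP1 core, whose letters are in capitals.
Hspa5: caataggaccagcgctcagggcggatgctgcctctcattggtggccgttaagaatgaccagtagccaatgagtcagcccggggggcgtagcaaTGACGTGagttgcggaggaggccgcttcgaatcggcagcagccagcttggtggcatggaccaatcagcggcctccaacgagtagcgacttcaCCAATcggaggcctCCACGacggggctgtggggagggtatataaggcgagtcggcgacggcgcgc

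Of the other chaperone genes, Sdf2l1, a partner of the J proteins that feed BiP, had a log2 fold change of -0.26 ± 0.10 (SE; edgeR adjusted p = 0.084, and 0.0061 with the block). Canx, the membrane-bound relative of calreticulin, stood at 901, 895 and 917 CPM in MOP libraries 1, 2 and 3, against 1002, 896 and 1064 CPM in MODP (log2 -0.13 ± 0.07 SE, edgeR adjusted p = 0.19). The J protein genes Dnajc3, Dnajb11 and Dnajb9 had log2 fold changes of -0.09, 0.04 and 0.11, and none passed the test. Dnajb11 turned to -0.01 under upper-quartile scaling. Summed over the 10 chaperone genes, the libraries held 5384, 5449.9 and 6052 CPM in MOP, against 7079, 6683 and 8155 CPM in MODP. Calr, at a mean of 1624 ± 134 CPM in MOP and 2759.8 ± 319 CPM in MODP, made up most of that difference.

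Among the 9 genes for disulfide and proline folding, 4 (44.4%) were lower in MOP and 1 (11.1%) was higher, beside 14.9% and 16.3% of all tested genes. The median log2 fold change was -0.18. All 4 lower genes encode protein disulfide isomerases, which make and rearrange disulfide bonds. Pdia6 had 413, 413 and 447 CPM in MOP libraries 1, 2 and 3, against 550.0, 514 and 603 CPM in MODP. Pdia6 acts on disulfides and also binds BiP and IRE1, and its populations were well apart. It was 1.31-fold lower in MOP, at a log2 fold change of -0.39 ± 0.07 (SE; edgeR adjusted p = 0.0044). P4hb stood at 1324, 1322 and 1415 CPM in MOP libraries 1, 2 and 3, against 1593, 1545 and 1686 CPM in MODP libraries 1, 2 and 3. P4hb encodes PDI itself, and its highest MOP library lay below its lowest MODP library, with a log2 fold change of -0.25 ± 0.06 (SE; edgeR adjusted p = 0.011). Pdia4 had 187, 179 and 224 CPM in MOP libraries 1, 2 and 3, against 242, 227 and 271 CPM in MODP. Pdia4, or ERp72, did not overlap between the populations either, with a log2 fold change of -0.32 ± 0.10 (SE; edgeR adjusted p = 0.040).

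Pdia3, or ERp57, the isomerase that works with calreticulin and calnexin on glycoproteins, averaged 881 ± 37.6 CPM in MOP and 999 ± 53.1 CPM in MODP (SD, n = 3 each), at a log2 fold change of -0.18 ± 0.06 (SE; edgeR adjusted p = 0.048). The call for Pdia3 was lost in 5 of the 6 fits that left out a library, all but that without MODP library 2 (edgeR adjusted p = 0.17, 0.16 and 0.063 without MOP libraries 1, 2 and 3, and 0.11 and 0.17 without MODP libraries 1 and 3). It was also lost with DESeq2 size factors (edgeR adjusted p = 0.054), with no filter on low counts (0.075), and without both number 2 (0.055) or both number 3 (0.14) libraries. That for Pdia4 was lost without MOP library 1 or 2 (0.15 and 0.12) or MODP library 1 or 3 (0.097 and 0.13), and that for P4hb without MOP library 1 (0.066) and without both number 3 libraries (0.059).

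Of the oxidases that recharge the isomerases, 1 passed the test. Ero1lb encodes ERO1-beta, which hands oxidizing equivalents to PDI. Ero1lb stood at 83.4, 79.1 and 77.4 CPM in MOP libraries 1, 2 and 3, against 65.1, 61.4 and 63.2 CPM in MODP libraries 1, 2 and 3. All MOP libraries were above all MODP libraries, and the gene was 1.26-fold higher in MOP (log2 0.34 ± 0.06 SE, edgeR adjusted p = 0.0040). Of all stretches of 31 bases in its longest transcript (31-base words), 16.2% occur in transcripts of other genes. The sister gene Ero1l, ERO1-alpha, stood at 208, 221 and 222 CPM in MOP libraries 1, 2 and 3, against 202, 236 and 211 CPM in MODP. Its log2 fold change of 0.01 ± 0.07 (SE) did not pass (edgeR adjusted p = 0.96) and changed sign under other settings. The difference between the sister genes was not tested.

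The upstream windows of the called members of this role that hold an ERSE, Pdia6 (chr12:17266339-17266588) and Ero1lb (chr13:12565633-12565882), both on the plus strand of GRCm38.p6, are set side by side because the genes differed in opposite directions. Capitals mark the ends of the ERSE, on the gene's strand in Pdia6 and on the other strand in Ero1lb.
Pdia6: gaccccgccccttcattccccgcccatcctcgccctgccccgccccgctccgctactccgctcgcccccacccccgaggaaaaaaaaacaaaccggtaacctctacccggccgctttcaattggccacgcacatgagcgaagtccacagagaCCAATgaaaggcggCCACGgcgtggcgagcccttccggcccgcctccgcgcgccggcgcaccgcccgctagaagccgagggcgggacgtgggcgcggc
Ero1lb: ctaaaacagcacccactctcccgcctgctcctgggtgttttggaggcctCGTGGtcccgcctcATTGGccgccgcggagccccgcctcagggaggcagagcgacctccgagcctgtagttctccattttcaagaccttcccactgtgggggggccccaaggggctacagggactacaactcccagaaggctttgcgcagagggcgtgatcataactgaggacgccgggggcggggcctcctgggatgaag

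Creld2, an isomerase-like target of the unfolded protein response, had a log2 fold change of -0.24 ± 0.11 (SE; edgeR adjusted p = 0.14, 0.022 with the block and 0.13 with the title number as a block). The proline isomerase genes Ppib and Fkbp2 stood at log2 0.03 and 0.11 and did not pass. Ppib turned to -0.02 under upper-quartile scaling, and 37.3% of its 31-base words are shared with other genes. Summed CPM of the 9 genes was 3283, 3273 and 3529 in MOP libraries 1, 2 and 3, against 3853, 3742 and 4111 in MODP, without overlap.

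**Figure D3:**
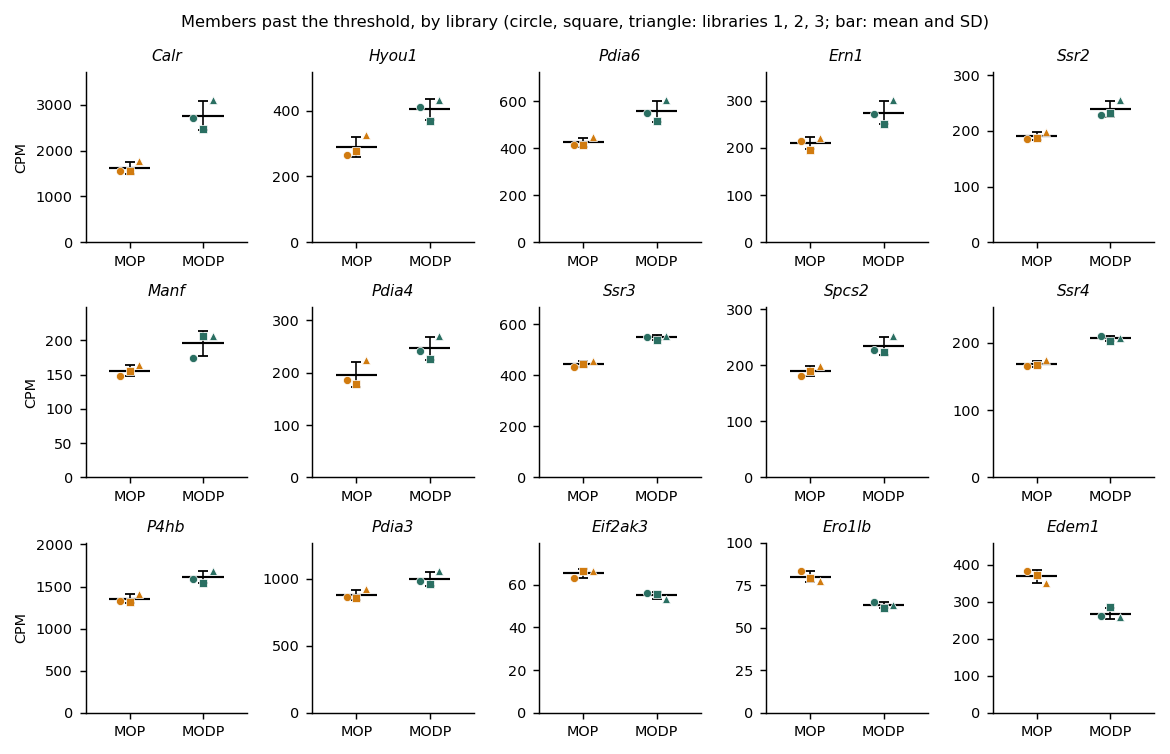
CPM of the 15 genes past the threshold in each library, with MOP left of MODP in every panel, circles, squares and triangles for libraries 1, 2 and 3, and bars for the mean and SD. Panels run from the most negative fold change, Calr, to the most positive, Edem1, and in none of them do the populations overlap.

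Fold changes of the import genes all had the same sign. All 11 genes of the translocon, the signal peptidase and the sugar transferase had a log2 fold change below 0, from -0.33 to -0.10 with a median of -0.20. Over all tested genes 51.2% were below 0. Of the 11 genes 4 (36.4%) were lower by the test, beside 14.9% of all tested genes, 0 were higher and 7 did not pass. For 9 of the 11 every MOP library lay below every MODP library, which held for 23.8% of all tested genes. Ssr1 to Ssr4 encode the TRAP complex, which sits beside the channel and helps signal peptides open it. Ssr2 had 185, 188 and 198 CPM in MOP libraries 1, 2 and 3, against 229, 232 and 255 CPM in MODP. Ssr3 stood at 433, 442 and 455 CPM in MOP libraries 1, 2 and 3, against 550.0, 538 and 555 CPM in MODP libraries 1, 2 and 3. Ssr4 had 166, 167 and 174 CPM in MOP libraries 1, 2 and 3, against 211, 203 and 207 CPM in MODP. The 3 subunits were lower by nearly the same amount, with libraries of a population within a narrow range. Their log2 fold changes were -0.33 ± 0.06 (SE), -0.31 ± 0.05 (SE) and -0.29 ± 0.05 (SE), with edgeR adjusted p of 0.0046, 0.0027 and 0.0030. Of the exon bases of Ssr2, 12.8% lie in an overlapping gene model.

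The remaining TRAP subunit, Ssr1, at a log2 fold change of -0.17 ± 0.06 (SE), missed the threshold (edgeR adjusted p = 0.055) and was called lower with the block (0.013). Spcs2 encodes a subunit of the signal peptidase. It averaged 190.0 ± 9.31 CPM in MOP and 234 ± 15.9 CPM in MODP (SD, n = 3 each), was 1.23-fold lower (log2 -0.30 ± 0.07 SE, edgeR adjusted p = 0.0097) and lost its call without MOP library 1 (0.053). Its partner Spcs1 had a log2 fold change of -0.10 ± 0.06 (SE; edgeR adjusted p = 0.22).

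The genes of the channel itself did not pass the test. Sec61a1, the pore-forming subunit, stood at 424, 433 and 459 CPM in MOP libraries 1, 2 and 3, against 464, 461 and 499 CPM in MODP (log2 -0.11 ± 0.06 SE, edgeR adjusted p = 0.17). The small subunits Sec61b and Sec61g had log2 fold changes of -0.20 and -0.28. Sec61b was called lower with the block (edgeR adjusted p = 0.045) but not with the title number as a block (0.072), and Sec61g rested on 4.86 to 6.02 CPM in MOP and 5.83 to 8.18 CPM in MODP, with 21.3% of its 31-base words shared. Ddost and Stt3a, a scaffold and the catalytic subunit of the oligosaccharyltransferase, had log2 fold changes of -0.16 and -0.18 (edgeR adjusted p = 0.067 and 0.071, and 0.015 and 0.013 with the block). The summed CPM of the 11 genes was 2929.9, 2974 and 3133 in MOP libraries 1, 2 and 3, against 3427, 3375 and 3633 in MODP.

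Degradation ran the other way in sum. Of 6 genes of ER-associated degradation, 5 did not pass, 1 was higher in MOP and 0 were lower, with a median log2 fold change of 0.02. The share higher, 16.7%, lies near the 16.3% of all tested genes. Edem1 encodes a mannosidase-like protein that picks misfolded glycoproteins for removal and is a known XBP1 target. Edem1 stood at 384, 372 and 351 CPM in MOP libraries 1, 2 and 3, against 261, 285 and 259 CPM in MODP libraries 1, 2 and 3. MOP libraries were all above MODP libraries, and Edem1 was 1.38-fold higher in MOP, at a log2 fold change of 0.46 ± 0.06 (SE; edgeR adjusted p = 0.0013). Derl1 and Sel1l, a derlin and the adaptor of the export complex, had log2 fold changes of 0.16 and 0.12 (edgeR adjusted p = 0.066 and 0.21), and Derl1 was called higher with the block (0.024). Syvn1, the ubiquitin ligase HRD1 of that complex, had -0.18 ± 0.07 (SE; edgeR adjusted p = 0.093) and was called lower with the block (0.020).

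Herpud1, a stress-induced partner of HRD1, had a log2 fold change of -0.08 ± 0.10 (SE; edgeR adjusted p = 0.60), and Derl3, a derlin of secretory cells, rested on few reads, at 0.884 to 2.18 CPM in MOP and 1.48 to 1.69 CPM in MODP. Summed CPM of the 6 genes was 904, 919 and 853 in MOP libraries 1, 2 and 3, against 765, 813 and 758 in MODP. These sums did not overlap, and Edem1 alone, at a mean of 369 ± 16.7 CPM in MOP and 268 ± 14.6 CPM in MODP, accounted for most of the gap.

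The sensors of the response differed in opposite directions. Of 7 sensor and transducer genes, Ern1 was lower in MOP, Eif2ak3 was higher and 5 did not pass, with a median log2 fold change of 0.15. Each direction holds 14.3% of the 7, near the 14.9% lower and 16.3% higher over all tested genes. Ern1 encodes IRE1-alpha, the kinase and RNase that splices Xbp1 mRNA. Ern1 had 214, 195 and 220.0 CPM in MOP libraries 1, 2 and 3, against 273, 251 and 301 CPM in MODP. The populations did not overlap, and Ern1 was 1.31-fold lower in MOP (log2 -0.39 ± 0.08 SE, edgeR adjusted p = 0.0069). Eif2ak3 encodes PERK, the kinase that slows translation through eIF2-alpha. Eif2ak3 stood at 62.9, 66.3 and 66.4 CPM in MOP libraries 1, 2 and 3, against 56.2, 55.6 and 53.2 CPM in MODP libraries 1, 2 and 3. All MOP libraries lay above all MODP libraries, and Eif2ak3 was 1.19-fold higher (log2 0.25 ± 0.06 SE, edgeR adjusted p = 0.016). This call was lost without MOP library 2 or 3 or MODP library 3 (edgeR adjusted p = 0.061, 0.057 and 0.058) and without both number 3 libraries (0.14).

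The third sensor, Atf6, a membrane-bound factor that is cut free under stress, missed the threshold. Atf6 had 159, 153 and 159 CPM in MOP libraries 1, 2 and 3, against 147, 133 and 144 CPM in MODP. Its MOP libraries were all above its MODP libraries, at a log2 fold change of 0.15 ± 0.06 (SE; edgeR adjusted p = 0.068, and 0.023 with the block). Xbp1, the factor made after splicing by IRE1, showed no difference past the threshold. Xbp1 stood at 185, 168 and 172 CPM in MOP libraries 1, 2 and 3, against 168, 157 and 167 CPM in MODP libraries 1, 2 and 3. MOP library 2 stood no higher than MODP library 1, and the log2 fold change came to 0.09 ± 0.06 (SE; edgeR adjusted p = 0.25). Counts per gene do not separate spliced from unspliced Xbp1, so IRE1 activity was not measured.

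Atf4, the factor made when PERK signals, did not pass either. Atf4 had 287, 296 and 274 CPM in MOP libraries 1, 2 and 3, against 272, 289 and 270.0 CPM in MODP. The populations overlapped, at a log2 fold change of 0.04 ± 0.06 (SE; edgeR adjusted p = 0.58), which turned to -0.01 under upper-quartile scaling. Ppp1r15a encodes GADD34, which switches the PERK signal off. Ppp1r15a stood at 266, 236 and 186 CPM in MOP libraries 1, 2 and 3, against 195, 206 and 145 CPM in MODP libraries 1, 2 and 3. Library 3 was the lowest in each population, and the log2 fold change of 0.34 ± 0.18 (SE) did not pass (edgeR adjusted p = 0.23), though it did with the block (0.0018), and not with the title number as a block (0.27). Trib3, a pseudokinase induced by ATF4 and CHOP, was at or below 1.18 CPM in every library. The summed CPM of the 7 genes overlapped, at 1175, 1115 and 1078 in MOP libraries 1, 2 and 3, against 1113, 1091 and 1079 in MODP.

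**Figure D4:**
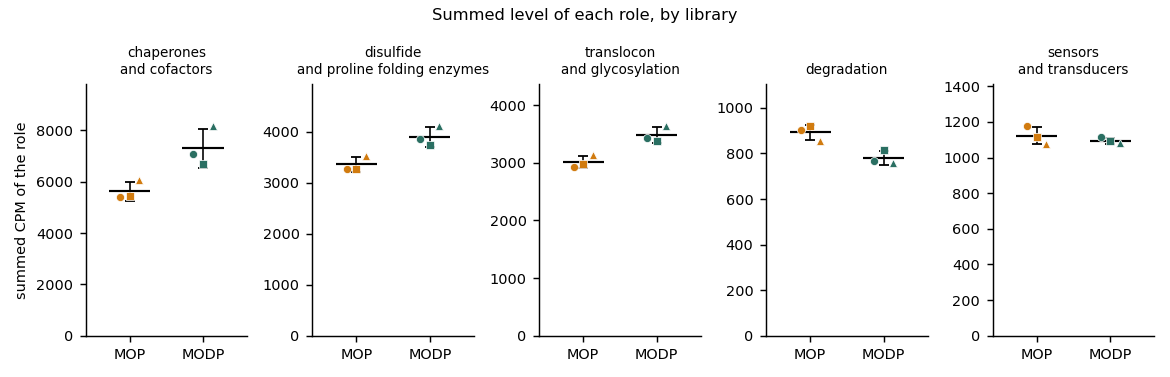
Summed CPM of each role in each library, with MOP left of MODP, circles, squares and triangles for libraries 1, 2 and 3, and bars for the mean and SD; every axis starts at 0. The sums of chaperones, folding enzymes and import genes are lower in MOP without overlap, that of degradation genes is higher, and that of sensors overlaps.

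In all, the 43 genes took 13676, 13731 and 14645 CPM in MOP libraries 1, 2 and 3, against 16237, 15703 and 17736 CPM in MODP. The ratio of the mean sums, MOP over MODP, was 0.847 for all 43 genes. By role it was 0.770 for the chaperones, 0.862 for the folding enzymes, 0.866 for import, 1.15 for degradation and 1.03 for the sensors. On lists of further genes it was 0.989 for all other ER genes, 0.991 for other folding genes and 0.911 for other import genes. For cytosolic heat shock and chaperonin genes it was 0.855. A lower sum was thus neither shared by all ER lists nor limited to the ER. Differences between these ratios were not tested. Calr held 1624 of the mean 14017 CPM in MOP and 2760 of the mean 16559 CPM in MODP. In bulk libraries such as these, fewer cells of a type and less RNA per cell cannot be told apart.

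Per length, in CPM per kilobase of exon (RPKM), Calr was the most abundant of the 43 genes in both populations, at 564 ± 46.5 in MOP and 958 ± 111 in MODP (SD, n = 3 each). P4hb came next, at 473 ± 18.6 RPKM in MOP and 562 ± 25.0 RPKM in MODP. Hspa5 followed with 304 ± 28.5 RPKM in MOP and 368 ± 65.8 RPKM in MODP, within its SD of Pdia3 at 281 ± 12.0 RPKM in MOP and 318 ± 16.9 RPKM in MODP. The lead of Calr over P4hb was thus narrower in MOP than in MODP, a difference that was not tested. The lowest were Trib3, Derl3 and Sec61g, with 0.448, 0.728 and 2.26 RPKM in MOP and 0.354, 0.797 and 2.76 RPKM in MODP.

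For most of the folding genes the number 3 library was the highest in each population. It was the highest for 29 of the 43 genes in MOP (67.4%) and for 23 in MODP (53.5%), where over all tested genes it was the highest for 32.2% in MOP and 34.1% in MODP. For the 19 chaperone and folding enzyme genes the counts were 16 in MOP and 13 in MODP. For 7 genes, Dnajb9, Herpud1, Syvn1, Edem1, Derl1, Atf4 and Ppp1r15a, library 3 was the lowest in both MOP and MODP. The share of all tested genes for which this held was not counted, so no pattern particular to these genes is claimed. The inducible HSP70 genes of the cytosol, named after their values were seen, followed the same libraries. Hspa1a stood at 9.79, 9.48 and 61.3 CPM in MOP libraries 1, 2 and 3, against 6.66, 7.90 and 46.4 CPM in MODP. Hspa1b stood at 12.1, 13.1 and 107 CPM in MOP, against 9.13, 8.65 and 88.5 CPM in MODP. Of the 31-base words of Hspa1a, 70.1% occur in transcripts of other genes, so the levels of this pair are uncertain. How the number 3 libraries bear on the folding genes was not tested beyond the fits without them.

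**Figure D5:**
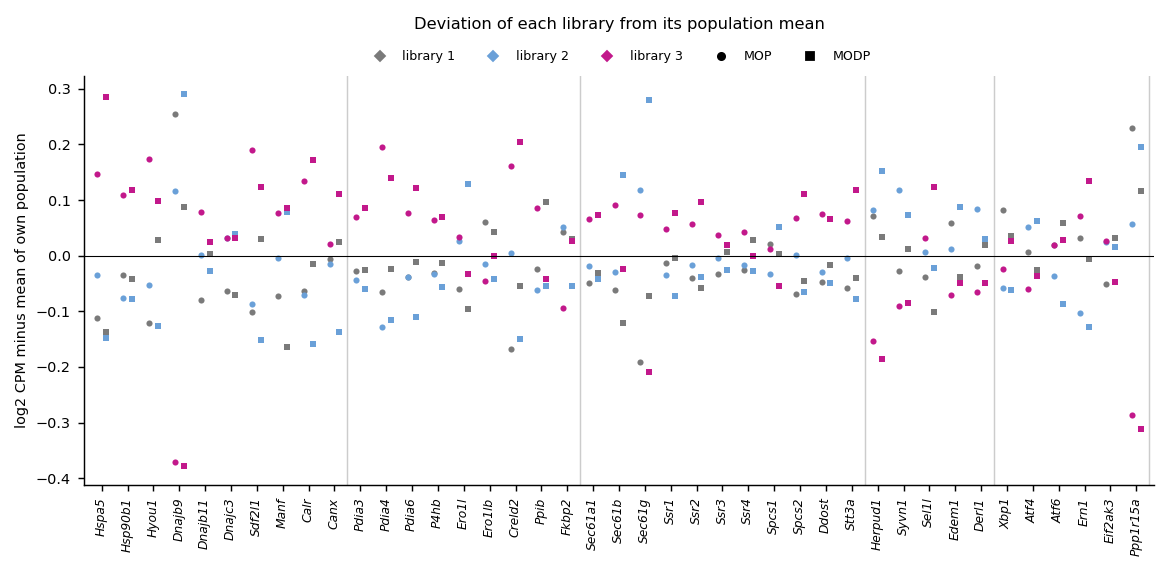
Log2 CPM of each library minus the mean of its own population, for the genes averaging at least 5 CPM in MODP in order of role (grey lines part the roles); circles are MOP, squares are MODP, and colours mark library numbers 1, 2 and 3. Library 3 sits high in both populations for most chaperones and folding enzymes, and low in both for Dnajb9, Herpud1 and Ppp1r15a.

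Genes of the same and related pathways beyond the 43 were counted from lists. Those called other ER genes include eIF2-alpha kinase genes, such as Eif2ak1 and Eif2ak4, whose products act outside the ER. Of 102 other ER genes, 97 were tested, Fkbp10, Fkbp14, Clgn and Creb3l4 were too low to test, and Ern2 was not analysed here. Of these, 18 (18.6%) were higher in MOP and 16 (16.5%) were lower, with a median log2 fold change of -0.05. Under upper-quartile scaling 13 were higher and 26 were lower, beside 1692 higher and 2452 lower of all tested genes. Both main shares lie near those of all tested genes. Without MOP library 1, 7 were higher and 7 were lower, beside 1281 higher and 1036 lower of all tested genes. Without both number 3 libraries 7 were higher and 11 were lower, beside 1029 higher and 797 lower of all tested genes.

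The other folding genes split, with 5 of 30 higher (16.7%) and 9 lower (30.0%), beside 16.3% higher and 14.9% lower over all tested genes. Prdx4, a peroxidase that oxidizes PDI, stood at 79.1, 75.2 and 74.3 CPM in MOP libraries 1, 2 and 3, against 44.2, 31.1 and 37.7 CPM in MODP, without overlap (log2 1.01 ± 0.12 SE, edgeR adjusted p = 0.00073). Pdia2 and Txndc5, further disulfide isomerase genes, were also higher, at log2 1.92 and 0.76, and Pdia2 stayed at or under 6.47 CPM throughout. Ppic, a cyclophilin gene, was lower, at 3.98, 5.96 and 5.16 CPM in MOP, against 20.4, 22.5 and 20.4 CPM in MODP (log2 -2.06 ± 0.16 SE, edgeR adjusted p = 0.00023). The proline isomerase genes Fkbp11 and Fkbp9 were lower too, at log2 -1.58 and -0.95.

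Of 27 other degradation genes, 7 (25.9%) were higher in MOP and 2 (7.41%) were lower, beside 16.3% and 14.9% of all tested genes. Edem3, a relative of Edem1, stood at 135, 122 and 161 CPM in MOP, against 88.4, 93.9 and 101 CPM in MODP (log2 0.56 ± 0.10 SE, edgeR adjusted p = 0.0058). Ngly1, which strips sugars from exported proteins, and the lectin gene Os9 were higher by log2 0.31 and 0.25. The lower genes were Edem2 and Selenos, at log2 -0.22 and -0.24. Of 26 other translocon and glycosylation genes, 4 (15.4%) were lower, 2 (7.69%) were higher, and 22 (84.6%) had a log2 fold change below 0. Over all tested genes 51.2% were below 0. Srp68, a subunit of the signal recognition particle, stood at 160.0, 156 and 164 CPM in MOP, against 234, 221 and 252 CPM in MODP (log2 -0.56 ± 0.06 SE, edgeR adjusted p = 0.00056). The oligosaccharyltransferase genes Ostc and Rpn1 were lower, at log2 -0.31 and -0.36, while Tram2 and Tusc3 were higher, at 0.36 and 0.38. Calls of Os9, Edem2, Selenos, Ostc, Rpn1, Tram2 and Tusc3 were lost in 1 to 4 of the 6 fits without a library, each of them without MOP library 1, with the largest edgeR adjusted p between 0.062 (Ostc and Tram2) and 0.13 (Tusc3). Without both number 3 libraries it was 0.073 for Ngly1 and 0.12 for Os9.

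Of 14 other sensor and processing genes tested, 4 (28.6%) were higher in MOP and 1 (7.14%) was lower, beside 16.3% and 14.9% of all tested genes. They held the eIF2-alpha kinase genes Eif2ak1 (HRI), at log2 0.40 ± 0.06 (SE), and Eif2ak4 (GCN2), at log2 -0.33 ± 0.07 (SE), which differed in opposite directions (edgeR adjusted p = 0.0026 and 0.011). Creb3, a membrane-bound factor, and Ppp1r15b, a relative of the GADD34 gene Ppp1r15a, were higher by log2 0.57 and 0.39. Of the exon bases of Creb3, Ppp1r15b and Eif2ak1, 20.8%, 11.4% and 11.6% lie in overlapping gene models. Among 22 tested ATF4 and CHOP target genes, 6 (27.3%) were higher, among them Mthfd2, Ddit4 and Eif4ebp1 at log2 0.47, 1.11 and 0.26. The 3 lower genes (13.6%) were Vldlr, Phgdh and Wars, at log2 -2.96, -0.78 and -0.24. Vldlr stayed at or under 3.30 CPM, and 74.1% of the 31-base words of Phgdh are shared. Of 18 cytosolic heat shock and chaperonin genes tested, 7 (38.9%) were lower and 0 were higher, led by Tcp1, Cct2 and Chordc1 at log2 -0.29, -0.28 and -0.38. Without MOP library 1 the calls of Ppp1r15b (edgeR adjusted p = 0.051) and Eif2ak4 (0.054) were lost. Those of Eif4ebp1 and Wars were lost in 3 and 4 of the 6 fits without a library (0.015 to 0.059 and 0.022 to 0.074 over the 6), and that of Ddit4 without MODP library 1 (0.055) and with the block (0.079).

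The sort label was checked with Cd27 itself, at 4.57, 3.52 and 3.64 CPM in MOP libraries 1, 2 and 3, against 35.4, 38.9 and 38.7 CPM in MODP. Library totals ran from 10701425 to 15892640 counts. Marker lists of cells that secrete much protein did not go the same way. They are to be set beside 14.9% lower and 16.3% higher over all tested genes. The granule precursor list (Mpo, Elane, Ctsg, Prtn3 and Ms4a3; Azu1 was not analysed here) was lower in MOP for 5 of 5 genes, with summed CPM of 11866 to 14374 in MOP and 22106 to 24719 in MODP. The basophil and mast cell list was higher for 7 of 8 genes, at 3152 to 5001 CPM in MOP and 513 to 1086 CPM in MODP. Of the plasma cell list 0 of 6 tested genes passed, Tnfrsf17 and Prdm1 were too low to test, and the sums were 626 to 1527 CPM in MOP and 331 to 406 CPM in MODP. The part of these cells in the lower folding and import genes was not tested.

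The early progenitor list (Cd27, Kit, Flt3, Cd34, Hoxa9 and Meis1) was lower in MOP for 6 of 6 genes (319 to 361 CPM in MOP, 800.0 to 936 CPM in MODP). Cd27 is the gene of the sort label, so its direction was fixed in advance, and it is part of these sums. The T and NK list was lower for 6 of 8 (67.0 to 107 CPM in MOP, 231 to 296 CPM in MODP) and the plasmacytoid dendritic list for 4 of 6 (109 to 125 CPM in MOP, 151 to 181 CPM in MODP). The erythroid and megakaryocyte list was higher for 4 of 8 (404 to 509 CPM in MOP, 125 to 303 CPM in MODP) and the macrophage list for 2 of 7 tested (168 to 253 CPM in MOP, 106 to 174 CPM in MODP). Shares of all tested genes were again 14.9% lower and 16.3% higher. No gene passed on the B list (39.0 to 77.5 CPM in MOP, 43.1 to 127 CPM in MODP) or the neutrophil list (2792 to 11642 CPM in MOP, 2161 to 16697 CPM in MODP), whose highest library was number 2 in both. No listed marker was at 0 in all 6 libraries, and the part of these cells too was not tested.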

How the data were processed

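Total RNA of the 6 libraries was, per the labels' protocols, isolated with TriZol and made into TruSeq RNA libraries. The table the authors deposited held raw read counts per Ensembl gene, as its whole-number values show. TopHat 1.4 and HTSeq are named in the submitters' processing notes, and genome build, annotation and strand setting were not given in the sources used here. Overlapping genes on opposite strands can therefore not be told apart. Symbols came from GENCODE release M21 by identifier, which matched 20840 of 22271 genes.

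CPM values are counts per 1000000 with TMM-scaled library sizes (factors 0.983 to 1.03), and RPKM divides them by the length of a gene's merged GENCODE M21 exons. Genes were filtered with filterByExpr and tested with edgeR 4.0.16 in R 4.3.3, by the robust quasi-likelihood test on population alone, adjusted by Benjamini-Hochberg over 12850 genes, at 0.05. The script was tested on simulated counts. Standard errors come from the same fit, and p-values reflect only how these libraries vary, which may be technical. DESeq2 1.42.0, other scalings, filters, blocks and fits without libraries were alternatives. Within a population library pairs differed by a chi-square of 7.35 to 34.7 per degree of freedom, and none repeated another within sampling noise.

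Column names of the table number the libraries 1, 2 and 3 in each population, where the sample titles read WT1, WT2 and WT1. Deviations from the population means over 9351 genes correlated at 0.59, 0.61 and 0.51 for libraries of the same column number and at -0.45 to 0.05 for other pairs, so the column numbers were taken as pairs.

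The 43 genes and all lists were chosen with earlier results of these data known. Full values are given for up to 3 genes a direction and role by smallest adjusted p and for Xbp1, Atf4, Atf6, Ern1 and Eif2ak3, and of each other list up to 3 genes a direction are named. Values of Hspa5, Hsp90b1, Ppp1r15a and other genes beyond that rule were added after they were seen. None of the 43 shared 50% or more of its 31-base words with other GENCODE M21 genes, and 7 shared at least 10%.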

Additional observations from a re-analysis of the deposited data

How the results depend on the processing

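Of the 43 genes, 12 were lower and 3 were higher in MOP, and the median log2 fold change was -0.13. With the replicate number as a block these became 20, 6 and -0.16, and with the title number as a block 17, 5 and -0.16, where Hspa5, Creld2, Sec61b and Ppp1r15a were not called. No gene called without a block lost its call with either. The median was -0.18 under upper-quartile scaling, -0.15 with a filter of 1 CPM in 3 libraries and -0.17 without both number 2 libraries. Other ER genes lower in MOP numbered 26 under upper-quartile scaling, beside 2452 lower of all tested genes. Without both number 3 libraries, an alternative chosen after seeing the data, 1029 genes were higher and 797 were lower, with 7 of the other ER genes higher and 11 lower. The causes were not tested. Leaving out each library in turn gave 7 to 17 lower and 2 to 3 higher members, a median of -0.17 to -0.12, 7 to 20 higher and 7 to 23 lower other ER genes, and 1281 to 2524 higher and 1036 to 2275 lower genes in all. Calr, Hyou1, Pdia6, Ssr2, Ssr3, Ssr4, Ern1, Ero1lb and Edem1 passed in each of these 6 fits. No called gene changed sign in any alternative. Among genes that did not pass, the log2 fold change under upper-quartile scaling was -0.010 for Atf4, -0.011 for Dnajb11, -0.048 for Ero1l and -0.022 for Ppib. For Ero1l it was -0.001 with the 1 CPM filter, and without both number 3 libraries it was -0.034 for Ero1l and -0.041 for Ppib. Without a library in turn it ran from -0.065 to 0.052 for Hsp90b1, -0.060 to 0.273 for Dnajb9, -0.042 to 0.071 for Ero1l, -0.012 to 0.083 for Ppib, -0.164 to 0.002 for Herpud1 and -0.546 to 0.129 for Derl3. Depth limits Derl3, Trib3 and Sec61g, the genes with the fewest reads.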
